A study of Arabidopsis thaliana with 18 samples.

Results

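The response of whole Arabidopsis thaliana seedlings to induction of DUO1 was measured at 12 h, on the 6 of 18 ATH1 arrays whose labels give that time. Of these, 3 came from induced plants and 3 from plants that were not induced. Both groups were of background Col-0 and carried the same pMDC7DUO1 construct, a T-DNA insertion that places DUO1 under an inducible promoter. Constant light and hygromycin medium with no carbon source were used for all plants, which were 12 days old at treatment, and total RNA was taken from the whole plant. The remaining 12 arrays held the same pair of groups at 6 h and 24 h. The labels do not name the inducer, the number of transgenic lines or the origin of the replicates, and no group received the inducer without the construct, so the effect of DUO1 and that of the inducing treatment cannot be told apart. In such bulk samples, fewer cells of a type and less RNA per cell cannot be told apart either.

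DUO1 is an R2R3 MYB transcription factor of the male germline. In pollen it acts in the generative cell and in sperm cells, where it is needed for the division that forms the sperm cells and for the expression of sperm genes, among them the histone H3 gene MGH3. Seedlings have no germline, so the construct asks which genes respond when DUO1 is made in vegetative cells. DUO1 itself could not be followed, since 0 of the tested probe sets carried its name in the annotation used here.

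The 6 arrays resembled each other closely in scale. Median signals lay between 36.8 and 39.2, and 77.4% to 80.6% of probe sets were above the background level of their array, taken as the highest signal among unspiked control probe sets and equal to 4.8 to 6.19. The lowest correlation of log2 signals between arrays of a group was 0.947. The 3′ to 5′ signal ratio of the GAPDH control, a measure of RNA integrity and labelling, was 1.35 to 1.51 on the induced arrays and 1.18 to 1.33 on the others. These ranges do not overlap, and the part of this difference in the results was not tested. Whole-seedling identity was checked with markers. The leaf gene RCA, which encodes Rubisco activase, gave 5163, 5637 and 5714 without induction and 4842, 5131 and 4944 with it, and the root beta-glucosidase gene PYK10 gave 4102, 4202 and 4147 and 3433, 3948 and 4092. Leaf and root transcripts were thus abundant in both groups. The induced signals of both genes lay below the others with no overlap, but neither gene passed the test (adjusted p = 0.747 and 0.684). The pollen tube receptor kinase genes ANX1 and ANX2 and the tapetum factor gene AMS were at or below background on all 6 arrays.

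Of 22746 probe sets tested with limma on log2 signals, 662 were higher and 440 lower in induced plants at a Benjamini-Hochberg adjusted p under 0.05, which is 2.91% and 1.93% of those tested, or 4.84% together. Among the 13513 probe sets assigned to exactly 1 gene, 378 rose (2.8%) and 210 fell (1.55%), together 4.35%. Every count of called members in a gene group below is to be read beside these shares. The signals of the induced and other arrays did not overlap for 657 of the 662 rises and 434 of the 440 falls, against 24.0% of all probe sets tested. The split between rises and falls rested on the scaling of the arrays: with every array set to 1 median it was 492 rises and 620 falls. Without induced replicate 2 the total was 615, and without replicate 3 of the plants not induced it was 704. An unadjusted p under 0.05 was reached by 3783 probe sets.

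Most changes were small, and a minority were switches. The median log2 change was 0.78 among the rises and -0.81 among the falls, beside 0.04 over all probe sets. A change of at least 2-fold was fitted for 235 rises and 185 falls, of at least 8-fold for 68 and 24, and of under 1.5-fold for 204 and 131. All 6 arrays were above background for 567 rises and 375 falls. A further 39 rises went from background on all 3 arrays without induction to a signal above it on all 3 induced arrays, and 18 falls went the opposite way. For such genes only a bound on the change can be stated, written as at least so many fold, and where only 1 or 2 arrays of the lower group were at background the signals are given without a fold. The median signal without induction was 52.3 for the rises, 120.0 for the falls and 37.2 for all probe sets.

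**Figure D1:**
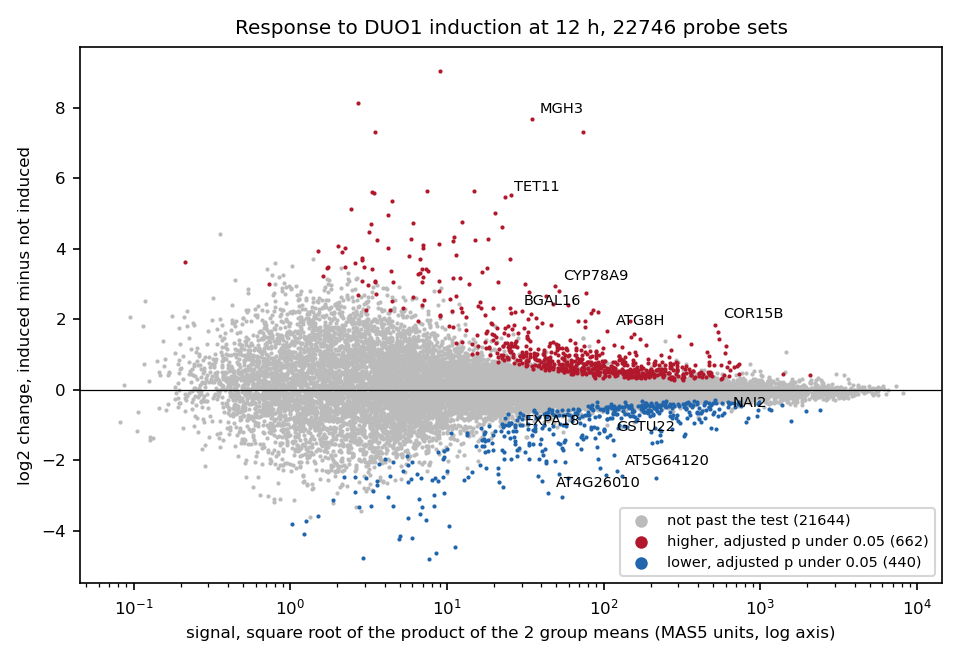
Log2 change at 12 h (vertical axis, induced minus not induced, n = 3 arrays each) against signal (horizontal log axis) for 22746 probe sets. The 662 higher (red) and 440 lower (blue) probe sets passed limma at an adjusted p under 0.05. Changes of more than 4 log2 units lie at low to middle signal, where values below background spread widely in both colours and in the grey points.

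Of 3 sperm cell genes found by name in the annotation used here, MGH3 and TET11 rose from signals at or near background to clear signals. Sperm cell genes that the annotation does not name were not covered, since 8730 probe sets had no gene. MGH3 encodes the histone H3 variant of male gametes, and its signals were 1.43, 6.04 and 1.02 without induction and 435, 438 and 407 with it (limma, adjusted p = 7.77e-08). The 3 induced arrays lay within a narrow range and far from the others, of which only 1 exceeded background. TET11, which encodes a membrane protein of the tetraspanin family, gave 7.2, 3.33 and 1.32 and 125, 153 and 145 (adjusted p = 0.000454). TET12, a close relative of TET11, was at background on all 6 arrays. The summed signal of the 3 sperm cell genes was 6.79 to 14.4 without induction and 553 to 592 with it. MGH3 and TET11 were already known from earlier results of these data and serve here as a reference point.

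Few markers of other reproductive cells passed the test. Of 11 pollen vegetative cell and tube genes, 1 rose and 10 did not pass. That gene was ACT11, an actin gene of reproductive tissues, at 102, 96.6 and 104 without induction and 128, 167 and 137 with it (log2 change 0.50 ± 0.12 SE, adjusted p = 0.0167). The ACT11 groups did not overlap, but the call was lost with 1 median for all arrays and without replicate 2 of either group. Summed over the 11 genes the signal was 175 to 183 without induction and 198 to 250 with it, ACT11 included, and 4 and 5 of the genes were at background throughout a group. Of 4 egg, central cell and synergid genes and 4 anther and tapetum genes, 0 passed.

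Other genes rose from signals at or near background. NRT2.5, a high-affinity nitrate transporter gene, gave 5.59, 1.06 and 1.82 without induction and 57.8, 34.5 and 36.1 with it (adjusted p = 0.00023). SBT4.13, a subtilisin-like serine protease gene, gave 3.63, 1.14 and 6.83 and 54.4, 70.9 and 50.9 (adjusted p = 0.000935). For both genes 1 array without induction was just above background and all induced signals were several times higher. CML37, a calmodulin-like calcium sensor gene, rose from 0.15, 2.37 and 0.47 to 15.9, 24.3 and 13.4, at least 3.09-fold (adjusted p = 0.00118). SDS, which encodes a meiotic cyclin-like protein, rose from 0.98, 1.29 and 1.29 to 6.83, 11.1 and 12.6, at least 1.76-fold (adjusted p = 0.00508). SDS stayed weak in induced plants and lost its call when signals below background were raised to it.

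Several loci known here by identifier alone also rose from low signals. AT4G21020 gave 0.557, 3.53 and 3.14 without induction and 92.7, 95.4 and 86.2 with it, at least 16.3-fold. The rise was at least 7.46-fold for AT4G20790, 7.73-fold for AT3G03430, 4.96-fold for AT2G37070 and 4.92-fold for AT1G15190. All 5 were at background on the 3 arrays without induction, and their adjusted p lay between 2.3e-07 and 0.00231. AT5G37450 rose from 10.4, 3.95 and 1.42 to 78.1, 106 and 102, and AT5G39520 from 1.98, 5.15 and 5.98 to 85.7, 81.1 and 64.1.

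Tetraspanin genes beyond TET11 also passed the test. Of 15 tetraspanin genes 4 rose and 0 fell, beside 2.8% of all single-gene probe sets rising. TET10 was expressed in both groups, at 71.4, 69.3 and 61.9 without induction and 107, 109 and 124 with it (log2 change 0.75 ± 0.12 SE, adjusted p = 0.000842). TET4 was weak, at 4.84, 9.2 and 3.16 and 13.7, 19.3 and 22.7 (adjusted p = 0.00865), and TET16 passed at signals near background, so its change was not measured. The median log2 change of the 15 genes was 0.17.

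Genes already expressed in seedlings formed the larger part of the response, led by CYP78A9 among those with a name. CYP78A9, a cytochrome P450 gene known for its effect on fruit size, gave 14.9, 22.9 and 15.5 without induction and 147, 122 and 130.4 with it. All 3 induced arrays lay far above the others, and the fitted change was 7.63-fold (log2 change 2.93 ± 0.25 SE, adjusted p = 2.3e-07). Of 24 cytochrome P450 genes it was the 1 that passed, a count near the 4.35% of all single-gene probe sets called. BGAL16, a beta-galactosidase gene, rose from 12.7, 9.37 and 16.3 to 61.2, 50.9 and 62.6 (log2 change 2.22 ± 0.21 SE, adjusted p = 9.3e-07). BGAL16 was the 1 riser among 39 glycosyl hydrolase genes, of which 1 fell. These counts were near the shares of all single-gene probe sets, 2.8% rising and 1.55% falling. AT1G08050 rose from 13.8, 18.1 and 19.3 to 112, 114 and 97.9 and AT4G35110 from 24.6, 28.2 and 24.2 to 126, 142 and 138 (log2 changes 2.67 and 2.40).

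**Figure D2:**
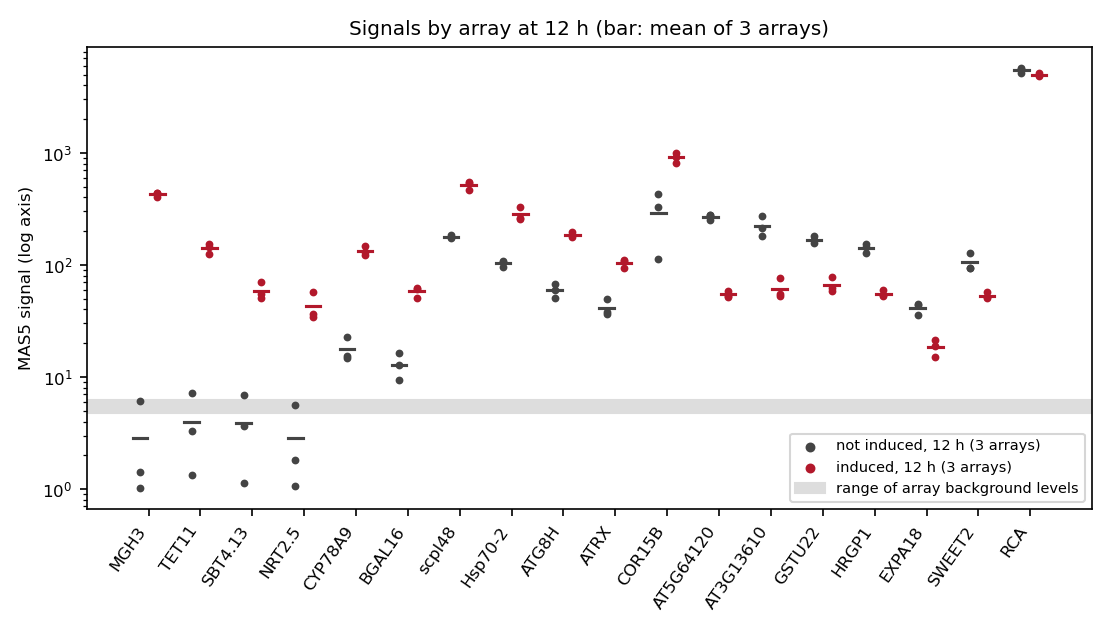
MAS5 signals (log axis) of 18 genes on each of the 3 arrays without induction (grey points) and 3 induced arrays (red points) at 12 h, with bars at the means. The grey band is the range of array background levels, 4.8 to 6.19. MGH3, TET11, SBT4.13 and NRT2.5 start at or near background, and RCA, the 1 gene shown that did not pass the test, has mean signals of 5505 ± 298 and 4972 ± 147 (SD).

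Chromatin and cell division genes rose in small numbers. Of 19 probe sets for histone and chromatin genes 4 rose and 0 fell, with a median log2 change of 0.14. Besides MGH3 these were ATRX, which encodes a chromatin remodeller that deposits histone H3.3, ASF1B, which encodes a histone chaperone, and HON4, which encodes a linker histone-like protein. ATRX gave 38, 36.4 and 50.0 without induction and 110.4, 107 and 94.5 with it (log2 change 1.34 ± 0.18 SE, adjusted p = 6.33e-05). ASF1B rose from 76.1 ± 10.3 to 128 ± 23.2 (SD, n = 3) and HON4 from 167 ± 14.3 to 224 ± 11.2 (log2 changes 0.75 and 0.43, adjusted p = 0.0178 and 0.008). All 4 kept their calls with 1 median for all arrays. ASF1B lost its call with no intensity trend, without replicates 1 or 2 of the plants not induced and without induced replicates 2 or 3.

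Of 7 Aurora kinase and mitotic genes 2 rose and 0 fell, and no cyclin gene was among the 7. AUR2, a kinase gene of spindle and cell plate, gave 65.3, 52.4 and 62.2 without induction and 102, 111 and 87.1 with it (log2 change 0.74 ± 0.13 SE, adjusted p = 0.00118). AUR1, its close relative, had a log2 change of 0.42 ± 0.12 SE (adjusted p = 0.041) and lost its call under 9 of the alternatives, 1 median and quantile normalization included. The median log2 change of the 7 genes was 0.17. Of 11 tubulin and kinesin genes TUB7 and KINESIN-13A rose, by 0.37 and 0.35 on the log2 scale, and with 1 median for all arrays 0 of the 11 passed.

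Rises were also found among genes of protein breakdown. Of 9 autophagy genes 4 rose and 0 fell, and their median log2 change was 0.41 beside 0.05 for all single-gene probe sets. ATG8 proteins are ubiquitin-like proteins that are attached to the autophagosome membrane. ATG8H gave 68.1, 50.7 and 59.7 without induction and 197, 177 and 185 with it (log2 change 1.66 ± 0.21 SE, adjusted p = 3.24e-05). APG8A, which encodes ATG8A, rose from 132 ± 6.87 to 199.6 ± 11.4 (SD, n = 3, adjusted p = 0.0105), and ATG8G from 33.9 ± 9.51 to 57.1 ± 5.76 (adjusted p = 0.0272). AT5G66930, which encodes ATG101, a subunit of the kinase complex that starts autophagy, rose by 0.53 (adjusted p = 0.0498). ATG8H kept its call under every alternative run, ATG8G lost it under 7 and AT5G66930 under 10, and 3 of the 4 passed with 1 median for all arrays.

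Of 34 serine carboxypeptidase-like, subtilase and cysteine proteinase genes 4 rose and 0 fell, beside 2.8% and 1.55% of all single-gene probe sets. Their median log2 change was 0.37, and 28 had a positive change. Protease genes of other families were not in this list, so the 0 falls hold for the listed genes alone. The serine carboxypeptidase-like gene scpl48 gave 183, 176 and 173 without induction and 467, 536 and 545 with it (log2 change 1.54 ± 0.11 SE, adjusted p = 2.47e-08). CP1, a cysteine proteinase gene, rose from 17.1, 15.1 and 24.7 to 54.5, 56.7 and 62.2 (log2 change 1.64 ± 0.24 SE, adjusted p = 0.000217). SCPL49 rose by 0.41 (adjusted p = 0.0197), a call lost with 1 median. Of 36 ubiquitin and U-box genes 3 rose and 1 fell, beside 2.8% and 1.55% of all single-gene probe sets, with a median log2 change of 0.11. The U-box ligase gene PUB19 stood at 17.4 ± 4.38 without induction and 43 ± 2.04 with it (adjusted p = 0.0156), while its relative PUB23 fell from 38 ± 6.65 to 22 ± 3.24 (adjusted p = 0.0288), calls lost under 4 and 6 alternatives. The deubiquitinase gene UBP22 and the conjugating enzyme gene UBC30 rose by 0.74 and 0.46 (adjusted p = 0.0212 and 0.00568).

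Some stress-associated genes rose. Hsp70-2, a cytosolic chaperone gene, gave 95.6, 108 and 106 without induction and 329, 261 and 259 with it (log2 change 1.45 ± 0.14 SE, adjusted p = 1.74e-06). Fes1B also rose, from 34.2 ± 5.33 to 59.9 ± 11.1 (SD, n = 3, adjusted p = 0.0147), a call lost under 3 alternatives. The heat shock list held 4 genes, Hsp70-2, Fes1A, Fes1B and Fes1C, of which 2 did not pass. Other heat shock protein genes were not in this list, so their response is not covered. COR15B, which encodes a cold-regulated chloroplast protein, gave 428, 329.6 and 114 and 1001, 921 and 817 (log2 change 1.85 ± 0.32 SE, adjusted p = 0.00107). The spread of COR15B without induction was wide, but the groups did not overlap. Of 12 genes with cold, dehydration or LEA names in the annotation DI21 was the other riser, by 0.52 (adjusted p = 0.04), a call lost under 7 alternatives. Genes of these families that the annotation gives by identifier alone were not counted, so the 12 are only a part of them. XERICO, a RING-finger gene whose overexpression raises abscisic acid, rose from 107, 102 and 87.7 to 185, 168 and 176 (log2 change 0.84 ± 0.12 SE, adjusted p = 0.000198). Of 5 defensin and pathogenesis-related genes 0 passed. Of 9 genes found by a search for WRKY, NAC and ERF names, 0 passed as well. Only NAC014 carried a NAC symbol and no member an ERF symbol, so this count covers mainly WRKY genes.

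Some further enzyme genes, all but the aldehyde dehydrogenase genes named after their values were seen, changed as follows. MGL, which encodes methionine gamma-lyase, rose from 61.5, 62.5 and 43.8 to 128, 117 and 114 (log2 change 1.11 ± 0.18 SE, adjusted p = 0.000543). ASPGB1, an asparaginase gene, rose from 42.6, 24.4 and 33.4 to 77.9, 68.1 and 90.4 (log2 change 1.26 ± 0.18 SE, adjusted p = 0.000174). PPDK, the gene of pyruvate orthophosphate dikinase, rose from 252 ± 26 to 397 ± 63.3 (SD, n = 3, adjusted p = 0.00321). DELTA-OAT, an ornithine aminotransferase gene, rose by 0.48 log2 units (adjusted p = 0.0199), a call lost under 5 alternatives. The groups did not overlap for any of these 4 genes. MAB1, a pyruvate dehydrogenase subunit gene, fell by 0.38, IDH-V, an isocitrate dehydrogenase subunit gene, by 0.37, and NDB2, an NADH dehydrogenase gene, by 0.61 (adjusted p = 0.0134, 0.0266 and 0.0239). Their calls were lost under 2, 7 and 5 alternatives. Of 8 aldehyde dehydrogenase genes 1 rose and 1 fell, beside 2.8% and 1.55% of all single-gene probe sets, with a median log2 change of 0.01. ALDH7B4 rose by 0.70 (adjusted p = 0.0101), and ALDH2C4 fell by 0.30 (adjusted p = 0.0358), a call lost under 9 alternatives.

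A few regulatory genes rose. Of 31 bHLH, bZIP and MYB factor genes with such words in their names, 4 rose and 0 fell, with a median log2 change of 0.13. Over all single-gene probe sets 2.8% rose and 1.55% fell. No homeobox gene was among the 31. SPT, a bHLH factor gene of carpel and seedling growth, gave 19.6, 16.8 and 16.3 without induction and 35, 36.4 and 39.2 with it (log2 change 1.07 ± 0.20 SE, adjusted p = 0.00229). MYBC1, a MYB-like gene, rose from 52.6 ± 2.92 to 97.3 ± 9.28 (SD, n = 3, adjusted p = 0.000533). AT5G47390, which encodes the MYB-like factor KUA1, and BZIP28, a membrane-bound factor gene of the unfolded protein response, rose by 0.57 and 0.41 (adjusted p = 0.00865 and 0.0392), the latter lost under 8 alternatives. RTE1, a negative regulator of ethylene signalling, rose from 44.3, 48.4 and 42.8 to 85.7, 113 and 97.3 (log2 change 1.12 ± 0.18 SE, adjusted p = 0.000538).

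Of 18 secreted signal peptide genes 3 rose and 1 fell, beside 2.8% and 1.55% of all single-gene probe sets, with a median log2 change of 0.12. CLE27, a CLAVATA3-related peptide gene, gave 8.22, 11.5 and 10.5 without induction and 32.6, 42.7 and 22.4 with it (log2 change 1.66 ± 0.28 SE, adjusted p = 0.00105). Among genes related to the alkalinization peptide RALF, RALFL32 and RALFL27 rose by 0.45 and 1.00, and RALFL22 fell by 0.52 (adjusted p = 0.00961, 0.0443 and 0.0106). The call of RALFL27 was lost under 10 alternatives.

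Several cell wall families held falls. Of 19 expansin genes, whose products loosen cell walls, 4 fell and 1 rose, beside 1.55% of all single-gene probe sets falling, and the median log2 change was -0.18. EXPA18 and EXPA7 are expressed in root hairs. EXPA18 gave 45.1, 35.9 and 43.7 without induction and 21.4, 15 and 19 with it (log2 change -1.18 ± 0.21 SE, adjusted p = 0.00133). EXPA7 gave 32.2, 26.7 and 34 and 10.0, 6.11 and 20.5, with 1 induced array at background (adjusted p = 0.00983). The EXPA7 call was lost without induced replicate 2 and with only the arrays compared. EXLA1 fell from 65.4 ± 10.9 to 30.3 ± 3.77 (SD, n = 3) and EXPA9 from 85.7 ± 5.74 to 57.2 ± 7.97 (adjusted p = 0.0127 and 0.0193), calls lost under 2 and 5 alternatives. In contrast, EXLB1 rose from 203 ± 42.1 to 342 ± 28 (SD, n = 3, adjusted p = 0.00111). With PYK10, the marker list for root held 3 genes, of which 2 fell. Its summed signal was 4179 to 4265 without induction and 3464 to 4131 with it, ranges that do not overlap. Nearly all of that sum was PYK10, which did not pass the test, so the sum repeats that gene. The part of a lower share of root RNA in these falls was not tested.

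Of 7 class III peroxidase genes with that name in the annotation, 2 fell and 0 rose. Peroxidase genes that the annotation gives by identifier alone were not counted, so the 7 are only a part of the family. AT5G64120, which encodes peroxidase 71, gave 251, 281 and 279 without induction and 58.9, 51.4 and 53.1 with it (log2 change -2.31 ± 0.21 SE, adjusted p = 7.44e-07). AT5G66390, which encodes peroxidase 72, fell from 54.1, 54.5 and 63.3 to 15.9, 18.3 and 24 (log2 change -1.58 ± 0.18 SE, adjusted p = 1.22e-05). The groups of both genes were far apart. Of 10 xyloglucan endotransglucosylase genes, whose products cut and rejoin wall xyloglucan, XTH18 and EXGT-A3 fell. EXGT-A3 went from 493 ± 54.4 to 314 ± 17.6 (SD, n = 3, adjusted p = 0.00644), and XTH18 passed with 1 induced array at background (adjusted p = 0.0176), a call lost under 5 alternatives.

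Further wall genes fell in the same arrays. HRGP1, a hydroxyproline-rich glycoprotein gene, gave 155, 127 and 143 without induction and 59.3, 52.3 and 54.1 with it (log2 change -1.36 ± 0.16 SE, adjusted p = 1.81e-05). GH9C1, an endoglucanase gene, fell from 24, 33.6 and 40.4 to 8.62, 8.3 and 11.4 (adjusted p = 0.000424). Of 4 genes of the SKU5-like multicopper oxidase family, sks16 and sks15 fell by 1.59 and 1.40 log2 units (adjusted p = 0.00331 and 0.0398), the latter lost under 8 alternatives. Of 3 cellulose synthase-like genes, CSLA03, whose product makes glucomannan, fell from 100.2 ± 1.05 to 61.4 ± 10.3 (SD, n = 3, adjusted p = 0.00281), and CSLD2, which acts in root hairs, fell by 0.36 (adjusted p = 0.0392), a call lost under 8 alternatives. TBL45 fell by 0.70 (adjusted p = 0.00213).

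Single members of other families fell while most of their family did not pass. GSTU22, a tau glutathione transferase gene, gave 181, 157 and 167 without induction and 62.8, 58.7 and 78.2 with it (log2 change -1.35 ± 0.12 SE, adjusted p = 7.32e-07). GSTU25 fell from 255 ± 7.07 to 153 ± 18.3 (SD, n = 3, adjusted p = 0.000305), and the other 10 of 12 glutathione transferase genes did not pass. Of the 12 genes 7 had a positive change, and their median log2 change was 0.17. AT3G13610, the gene of F6′H1, which makes the precursor of the root coumarin scopoletin, fell from 275, 215 and 180.0 to 55.5, 52.6 and 76.2 (log2 change -1.86 ± 0.16 SE, adjusted p = 2.16e-07). The vacuolar sugar transporter genes SWEET2 and TMT1 were the 2 of 19 listed genes of the SWEET and TMT families that fell. Of the 19 genes 13 had a positive change, with a median of 0.30 on the log2 scale, and 0 passed as rises. Sugar transporter genes of other families were not in this list, so their response is not covered. SWEET2 gave 94.5, 93.5 and 129 and 50.2, 56.9 and 51.2 (log2 change -0.99 ± 0.13 SE, adjusted p = 9.72e-05), and TMT1 fell from 194 ± 16.3 to 128 ± 13.7 (adjusted p = 0.00569).

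Of 52 UDP-glycosyltransferase genes 3 fell and 1 rose, beside 1.55% and 2.8% of all single-gene probe sets, and the numbers with a positive and a negative change were 26 and 26. UGT76B1 fell from 72.7 ± 19.8 to 30.6 ± 9.48 (SD, n = 3, adjusted p = 0.00788), and UGT76C2, which inactivates cytokinins, and IAGLU, which conjugates auxin, fell by 0.76 and 0.49 (adjusted p = 0.0402 and 0.0345), calls lost under 6 and 8 alternatives. Of 4 jacalin-related lectin genes JAL33 and JAL34 fell at high signal, JAL33 from 1368 ± 135 to 939 ± 81.8 and JAL34 from 1186 ± 258 to 790.0 ± 36.4 (adjusted p = 0.0188 and 0.012), calls lost under 5 and 2 alternatives. NAI2, which is needed to form ER bodies, fell from 657, 690.0 and 883 to 437, 437 and 515 (log2 change -0.67 ± 0.11 SE, adjusted p = 0.000897).

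Large falls were also found for loci known here by identifier alone, which were not assigned to families and may belong to those above. AT4G26010 gave 113, 109 and 146 without induction and 17.1, 16.2 and 14.4 with it (log2 change -2.94 ± 0.24 SE, adjusted p = 1.41e-07). AT2G18980 gave 254, 203 and 256 and 44.4, 47.5 and 41.7 (log2 change -2.41 ± 0.12 SE), with an adjusted p of 3.18e-10. In both genes all induced arrays lay far below all others. AT3G01190, AT5G48430, AT1G30870 and AT3G54040 fell by 2.52, 2.46, 2.40 and 2.23 on the log2 scale. AT3G49960 fell at least 4.24-fold, and its adjusted p was 0.051 without induced replicate 2.

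**Figure D3:**
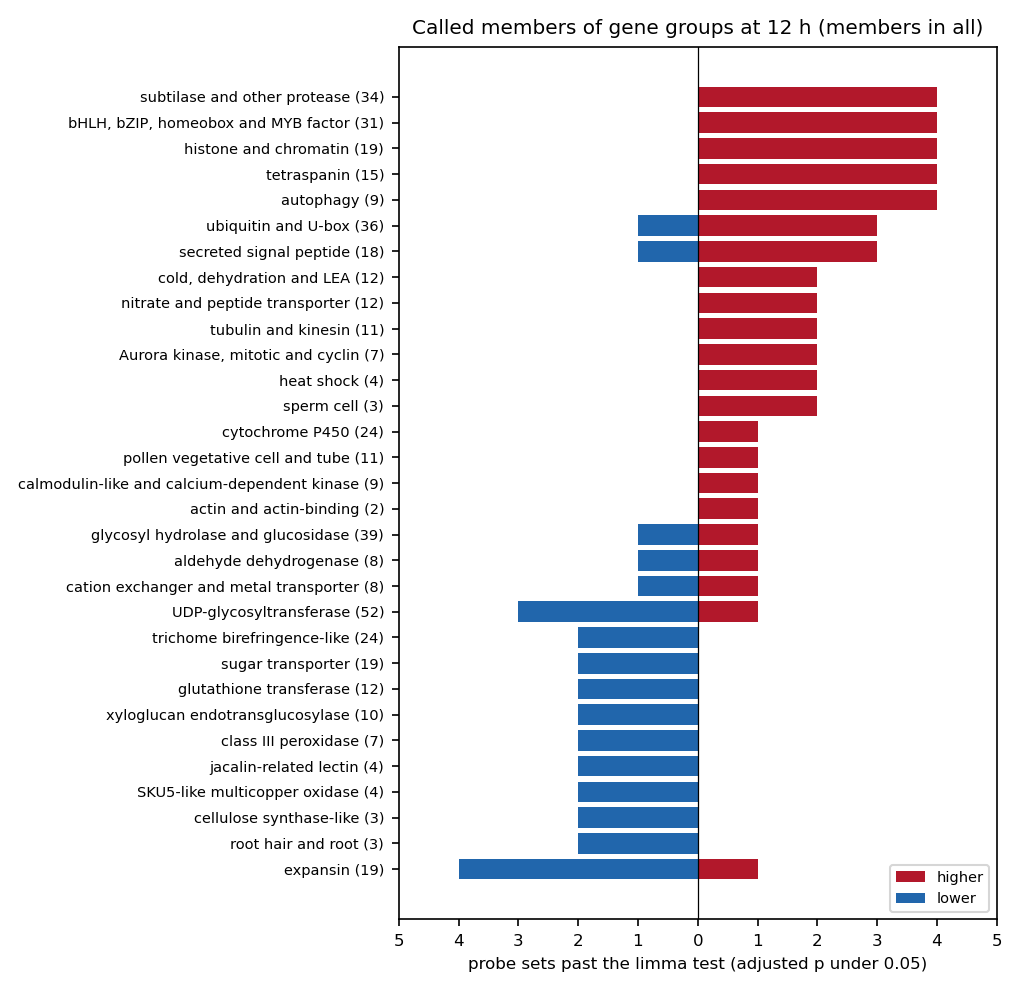
Number of probe sets that passed limma at 12 h in each gene group (horizontal axis, higher to the right in red, lower to the left in blue), with the number of members in parentheses. Groups with no call are left out. Group labels follow the words searched for, so a label may name a family with no member. Autophagy, tetraspanin, chromatin, protease and transcription factor groups have 4 rises and 0 falls each, and the expansin group has 4 falls and 1 rise.

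Other groups had 0 calls. Of 6 leaf photosynthesis genes 0 passed, with log2 changes between -0.15 and 0.08, and their summed signal was 19949 to 21123 without induction and 19502 to 21043 with it. Of 69 chloroplast genome genes, all above background, 0 passed and the median log2 change was 0.04. Mitochondrial genome genes were not in this list, so their response is not covered. The 2 reference genes PEX4 and GAPC2 did not pass either. Of 6 cytokinin response regulator genes 0 passed at 12 h, but only 1 of them was above background on all 3 arrays of a group, so most could not be measured.

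Whether the response at 12 h differed from that at 6 h was tested directly, as a difference of changes in 1 fit. It differed for 44 probe sets, 0.193% of those tested, with 34 more positive and 10 more negative at 12 h. The count was 6 with no intensity trend and 147 with signals raised to background. It was 22 and 24 without replicates 1 and 2 of the plants not induced at 12 h, 25 and 20 without induced replicates 1 and 2 at 12 h, and 28 without induced replicate 2 at 6 h. Of the 44, 40 were also called at 12 h. A total of 241 rises and 143 falls were called at 12 h and at neither 6 h nor 24 h, and among these 241 rises the difference from 6 h passed for 3. At 6 h, 0.572% of probe sets rose and 0.396% fell, together 0.967%, and at 24 h 4.43% and 3.9%, together 8.33%. Of the 662 rises at 12 h, 525 had the same sign at 6 h and 643 at 24 h, with median log2 changes of 0.28 and 0.65. Of the 440 falls, 353 and 425 kept their sign, with medians of -0.30 and -0.82. Among the falls 1 was called as a rise at 6 h and 2 at 24 h, and 0 rises were called as falls at either time. The fall called as a rise at 6 h had the largest of the 44 differences, -7.62 ± 1.19 SE (adjusted p = 0.00981). The times used different arrays but shared 1 estimate of spread.

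For named genes the difference from 6 h took various forms. Hsp70-2 had log2 changes of 0.38 at 6 h, 1.45 at 12 h and 1.36 at 24 h, and the difference between 6 h and 12 h was 1.07 ± 0.20 SE (adjusted p = 0.0306). The log2 change of scpl48 was 0.68 at 6 h and 1.54 at 12 h (difference 0.85 ± 0.16 SE, adjusted p = 0.0261). At 6 h scpl48 had passed the test and Hsp70-2 had not. MGL, UBC30 and RALFL32 had negative changes of -0.25, -0.24 and -0.26 at 6 h, none past the test, and their differences were 1.36 ± 0.25, 0.70 ± 0.13 and 0.72 ± 0.14 SE (adjusted p = 0.0261, 0.0388 and 0.0428). AT5G64120 had a log2 change of -0.82 at 6 h, not past the test, and the difference at 12 h was -1.49 ± 0.30 SE (adjusted p = 0.0474).

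In AT3G02480 and AT2G41190, replicate 2 of the plants not induced at 6 h lay far above the other two. AT3G02480 stood at 151, 1000.4 and 224 without induction and 145, 90.6 and 240.5 with it at 6 h, and at 40.3, 30.4 and 44.9 and 210.5, 218 and 109 at 12 h. AT2G41190 stood at 74.3, 334 and 72 and 65.1, 77.4 and 107 at 6 h, and at 51.2, 44.8 and 32.3 and 171, 246 and 177 at 12 h. Without induction the mean of both genes was lower at 12 h than at 6 h. The induced mean was above the other at 12 h. At 6 h the log2 changes were -1.14 for AT3G02480 and -0.58 for AT2G41190, and without replicate 2 of the plants not induced they were -0.33 and 0.15, so the sign for AT2G41190 rested on that array. The differences of the responses were 3.31 ± 0.68 and 2.79 ± 0.54 SE (adjusted p = 0.0493 and 0.0393). Without that replicate they were 2.5 for AT3G02480 and 2.06 for AT2G41190 (adjusted p = 0.0453 and 0.0093).

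**Figure D4:**
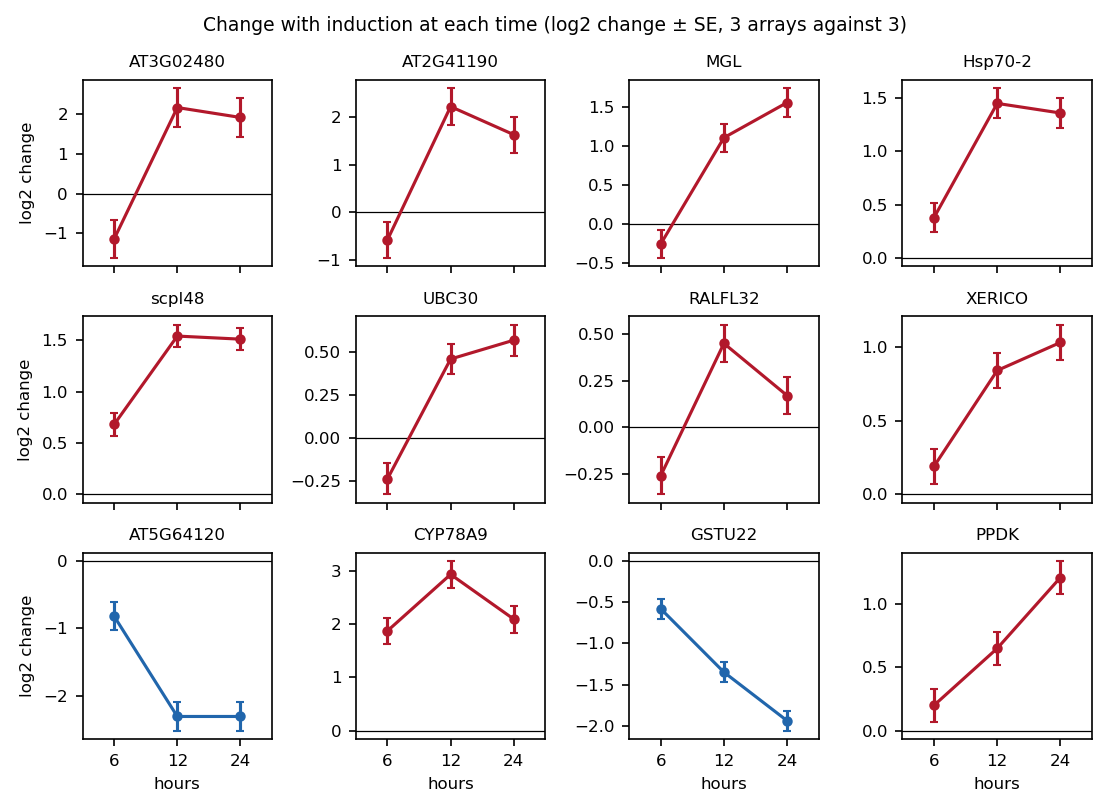
Log2 change with induction (points, with SE bars, 3 arrays against 3) at 6, 12 and 24 h for 12 genes, red where the change at 12 h was a rise and blue where it was a fall. The vertical scales differ between panels and the line at 0 marks no change. AT3G02480, MGL, UBC30 and RALFL32 have a change below 0 at 6 h and above 0 at 12 h, and so has AT2G41190, whose 6 h change is above 0 without 1 array.

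Between 12 h and 24 h, limma called a difference for 0 of 22746 probe sets (0.0%), with 1591 at an unadjusted p under 0.05 and a smallest adjusted p of 0.0854. The count was 2, 8 and 12 with the filter on mean signal, signals raised to background and array weights, and 18 without induced replicate 1 at 24 h. The smallest adjusted p belonged to AT5G20560, which fell from 11.9 ± 5.21 to 2.99 ± 1.78 (SD, n = 3) at 12 h. At 24 h AT5G20560 stood at 1.74 ± 1.37 without induction and 9.91 ± 3.55 with it. Its lower mean at each time was below the background of the arrays. The 12 h call of this gene was lost under 8 alternatives, signals raised to background among them. CYP78A9 had log2 changes of 2.93 and 2.09 at 12 h and 24 h, GSTU22 -1.35 and -1.94, and PPDK 0.65 and 1.21. None of these differences passed.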

How the data were processed

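Transcript levels were measured on ATH1 arrays in whole seedlings. The deposited intensity of each probe set is a MAS5 signal on a linear scale, made with GCOS, per the submitters' processing notes, with versions not given in the sources used here. Groups came from the labels. The labels do not say whether the 3 replicates of a group were separate cultures, and each p-value therefore reflects the spread among these samples alone, which may be technical.

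The log2 of each signal went into limma 3.58.1 under R 4.3.3, with statmod 1.5.0. The model gave each of 6 groups a mean and used all 18 arrays, and variances were moderated (eBayes, trend on mean signal). It had 12 residual degrees of freedom and a prior of 7.69. There was no filter on signal and no offset. P-values were adjusted over 22746 probe sets by Benjamini and Hochberg, after leaving out 64 controls, and called under 0.05. Signals scaled to quantiles or to 1 median, a filter on mean signal, an offset, signals raised to background, no trend, array weights, a replicate block, only the arrays compared, no probe sets of several genes and leaving out each array were the alternatives. A background level per array was the highest signal among 27 unspiked control probe sets. The fit was tested on simulated data. Of the probe sets, 13513 (59.4%) had 1 gene in the annotation used here, 503 several and 8730 none, and names were updated through RefSeq identifiers. Python 3.11.15, numpy 2.4.6, pandas 2.3.3 and matplotlib 3.10.9 were used.

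Genes were named by a rule: among single-gene probe sets that were called, did not overlap between groups and were above background on all arrays of the higher group, the 20 largest rises and 15 largest falls, the 10 largest of each with all 6 arrays above background, up to 4 members of each gene list, and the 5 largest differences between times in each direction. Called genes outside it with a name beyond a locus identifier were added after their values were seen. Not all genes the rule named are discussed. The lists were matched by words of the annotation and adjusted to its wording after the data were seen. Members and lists were chosen with earlier results of these data known. Promoter sequences were not analysed here. The number of arrays limits the precision of each value.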

Additional observations from a re-analysis of the deposited data

Results flagged for a closer look

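The response to induction differed between 6 h and 12 h, by a limma test of the difference itself, for 9 of the named genes. On the log2 scale the response at 12 h was more positive by 3.31 for AT3G02480, 2.79 for AT2G41190, 1.36 for MGL, 1.3 for AT4G35110, 1.07 for Hsp70-2, 0.85 for scpl48, 0.72 for RALFL32 and 0.70 for UBC30. For the peroxidase 71 gene AT5G64120 it was more negative, with a difference of -1.49. Their adjusted p lay between 0.0244 and 0.0493. All 9 kept their direction under the 22 alternatives run for this difference, and each lost its call under some of them, from 7 for AT4G35110 and scpl48 to 14 for UBC30. AT4G35110 rose at all 3 times, with log2 changes of 2.40 at 12 h and 2.34 at 24 h. The number of probe sets with such a difference moved by over 1.5 times with the processing, as given below.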

How the results depend on the processing

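The 1102 calls at 12 h lay between 818 and 1558 over the alternatives that kept all arrays, which is within 1.5 times of the count. Leaving out 1 array gave 615 to 915 calls, with 367 to 534 rises and 248 to 416 falls. The count for the difference between 12 h and 6 h, 44, was 82 with a filter on mean signal, 68 with an offset before the log, 147 with signals raised to background, 6 with no intensity trend, 101 with array weights, and 20 to 65 without 1 array. The count for 24 h minus 12 h, 0, was 2 with the filter, 8 with signals raised to background, 12 with array weights, and 0 to 18 without 1 array. The cause was not tested. Array weights gave 902 rises and 656 falls at 12 h.

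Same-numbered arrays of the 12 h groups did not deviate together (correlations of -0.122, -0.00222 and -0.0869). Deviations from the means of so few arrays cannot decide whether the replicate numbers pair the samples. With the replicate block the 12 h count was 848, the count for 12 h minus 6 h was 9 and that for 24 h minus 12 h was 0.

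Of 166 called genes with named values, 81 kept their call under every alternative run and 85 lost it under at least 1, and 0 changed direction. Signals near background limit the weak genes, and the annotation leaves 8730 probe sets without a gene. The promoter motif comparison was not run, since promoter sequences were not analysed here.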

Other observations

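Genes outside the described groups also passed the test at 12 h. OCT1, an organic cation transporter gene, stood at 6.03, 0.978 and 0.771 without induction and 14.2, 26.8 and 11.7 with it (adjusted p = 0.0402), a call lost under 8 alternatives. ZIP6, a metal transporter gene, rose from 53.5, 49.1 and 51 to 98.7, 103 and 105 (log2 change 1.00 ± 0.17 SE, adjusted p = 0.000897), while the cation exchanger gene CHX16 fell by 1.03 log2 units (adjusted p = 0.0375, lost under 6 alternatives). SCN1, which encodes a RhoGDI that restricts root hair initiation, rose from 241 ± 15.6 to 357 ± 34.2 (SD, n = 3, adjusted p = 0.00506). AT5G41190, which encodes the ribosome assembly protein NOB1, fell by 0.53 and the RNA helicase gene PRH75 by 0.36 log2 units (adjusted p = 0.0043 and 0.0331), the latter lost under 7 alternatives. ROXY2, a glutaredoxin gene known from anthers, stood at 6.43, 5.14 and 14.4 without induction and was at background on all 3 induced arrays (adjusted p = 0.039), a call lost under 8 alternatives. GYRB3 had 2 probe sets, with log2 changes of 0.56 and 0.63, of which the first passed (adjusted p = 0.0142) and the second did not (adjusted p = 0.339).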
